A study of Mus musculus with 16 samples.

Results

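The Gimap genes encode the GTPases of immunity-associated proteins, a vertebrate family of small GTP-binding proteins found mainly in lymphocytes. All genes of the deposited count table whose symbols start with Gimap were taken, which gave 8 of the 9223 genes: Gimap1, Gimap3, Gimap4, Gimap5, Gimap6, Gimap7, Gimap8 and Gimap9. They were measured by single-cell RNA sequencing in Pmel CD8+ Thy1.1+ T cells, whose transgenic T cell receptor recognises gp100, a protein of melanocytes and melanomas, so all cells share 1 specificity. The cells were taken from skin, lung and liver and from the draining lymph node of C57BL/6 mice aged 16 weeks, sampled 45 days after tumor surgery, that had melanoma-associated vitiligo, in which an immune attack on melanocytes leaves white skin. All tissues share that strain, disease, age and time, and no mice without tumor or vitiligo are among the samples used here. The sources used here do not say how many mice were pooled.

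GIMAP proteins share a guanine nucleotide-binding domain called AIG1, and several of them sit on the membranes of organelles such as lysosomes, the Golgi apparatus, the endoplasmic reticulum and mitochondria. The family is known for lymphocyte survival: mice or rats without functional Gimap5 lose peripheral T cells, and mice without Gimap1 in lymphocytes lose mature T and B cells. Several of their transcripts are known to be high in resting T cells and to fall when T cells are activated.

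The 8 genes lie in a cluster on chromosome 6 of GRCm38 (mm10), from 48647234 to 48770851, a stretch of 124 kb. From the lower coordinate up their order is Gimap8, Gimap9, Gimap4, Gimap6, Gimap7, Gimap1, Gimap5 and Gimap3. Of these, 6 lie on the plus strand, while Gimap6 and Gimap3 lie on the minus strand. All 8 are annotated as protein coding, and the table has 1 row for each, so isoforms were not told apart. Gimap7 spans 48718621 to 48724636, Gimap4 spans 48684549 to 48692060, Gimap5 spans 48746197 to 48754210 and Gimap3 spans 48764464 to 48770851. RefSeq promoter windows of GRCm38.p6 matched 8 of 8 genes, with 9 windows in all because Gimap8 has a pair of starts, and each window holds 250 bases before and 50 after a start. The 4 windows shown belong to the pair of genes with the widest skin differences described below, Gimap7 and Gimap4, and to the pair with the most similar coding sequence, Gimap5 and Gimap3. They are given 5′ to 3′ on the gene's own strand, and capitals mark matches to any of 5 motifs searched on both strands.
Gimap7, chr6:48718371-48718670, plus strand: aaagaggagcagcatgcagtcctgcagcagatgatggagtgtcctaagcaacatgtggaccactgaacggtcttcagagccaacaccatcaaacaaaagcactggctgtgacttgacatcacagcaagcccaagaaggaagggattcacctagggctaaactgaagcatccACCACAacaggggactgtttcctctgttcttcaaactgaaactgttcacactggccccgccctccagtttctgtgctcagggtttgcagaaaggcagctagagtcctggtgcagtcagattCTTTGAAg
Gimap4, chr6:48684328-48684627, plus strand: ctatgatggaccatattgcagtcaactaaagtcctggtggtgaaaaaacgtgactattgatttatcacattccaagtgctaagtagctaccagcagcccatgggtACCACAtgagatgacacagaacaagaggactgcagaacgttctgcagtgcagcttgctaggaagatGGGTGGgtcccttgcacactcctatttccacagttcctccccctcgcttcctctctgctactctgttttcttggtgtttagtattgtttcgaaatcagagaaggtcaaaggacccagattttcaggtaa
Gimap5, chr6:48745947-48746246, plus strand: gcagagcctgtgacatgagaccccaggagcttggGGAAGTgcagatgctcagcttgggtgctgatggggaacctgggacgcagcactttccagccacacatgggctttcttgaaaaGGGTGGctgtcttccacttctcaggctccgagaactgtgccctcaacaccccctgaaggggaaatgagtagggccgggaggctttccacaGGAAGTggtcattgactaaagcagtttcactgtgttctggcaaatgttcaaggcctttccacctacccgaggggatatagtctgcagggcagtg
Gimap3, chr6:48770802-48771101, minus strand: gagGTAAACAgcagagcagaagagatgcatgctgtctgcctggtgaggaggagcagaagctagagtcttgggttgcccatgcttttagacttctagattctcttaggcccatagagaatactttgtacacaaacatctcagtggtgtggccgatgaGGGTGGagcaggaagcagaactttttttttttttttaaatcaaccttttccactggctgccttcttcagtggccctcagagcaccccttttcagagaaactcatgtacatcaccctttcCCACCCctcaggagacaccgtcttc

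The motifs were the CACCC box CCACCC, which factors of the KLF family can bind, the ETS core GGAAGT, the RUNX motif TGTGGT, the FOXO motif GTAAACA and the TCF/LEF motif CTTTGAA. The CACCC box was in 5 of the 9 Gimap windows, against 31.5% of all 32851 promoter windows of 300 bases. The ETS core was in 4 Gimap windows against 23.8% of all, and the RUNX motif in 3 (Gimap1, Gimap4 and Gimap7) against 16.8% of all. The FOXO motif was in the Gimap3 window alone (3.65% of all) and the TCF/LEF motif in the Gimap7 window alone (5.14% of all). None of the 5 motifs was present in every Gimap window, and a match of letters is a description of the window alone.

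Between coding sequences, identity over 28 pairs of Gimap genes had a median of 56.4% and ran from 52.8% to 88.4%. The highest value belonged to Gimap3 and Gimap5. Their whole transcripts share an identical run of 140 bases, while those of no other pair shared more than 17 bases in a row. Reads from that pair could have been split between them in counting, so their separate values are uncertain, and their sum is also given. Gm28053, an annotated protein-coding locus on the same strand, overlaps exons of Gimap7, Gimap1 and Gimap5, and Gimap1os overlaps Gimap1 on the other strand. Neither overlapping locus was analysed here, and the sources used here do not say whether reads were counted by strand.

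The table held 1224 skin, 2322 lung, 556 liver and 1625 lymph node cells, with 1928185 to 8072278 counts per tissue and a median of 2517.5 to 3095.5 counts per cell. Since the titles of the 4 samples of each tissue differ by a lane-like ending alone, each tissue was treated as 1 library. No value has a replicate, no difference was tested, and every interval is an exact 95% interval for counting error only. Of 5708 distinct cell barcodes, 19 occurred in more than 1 tissue. All 8 markers of CD8 T cells were detected in every tissue, and Cd3g had a count in 92.2% to 99.3% of cells at equal depth. Of 3 CD4 T cell markers Cd40lg alone was in the table, a gene that activated CD8 T cells can also express, and it had a count in 21.1% of skin cells, 2.245% of lung cells, 2.65% of liver cells and 9.84% of lymph node cells. Its part in the Gimap results was not tested. The libraries fell into 2 kinds by measures other than Gimap genes. Summed over the 14 pseudogenes whose names end in -ps, levels were 7766 CPM (a gene's counts per 1000000 counts pooled over a tissue) in skin, 2149 in lung, 2102.5 in liver, against 7074 in lymph node. The ratio of Cd8b1 to Cd8a counts was 1.04 in skin, 4.31 in lung, 3.78 in liver, against 1.23 in lymph node, and in the deposited cell names a 2 follows the tissue for skin and lymph node alone. Any Gimap comparison that sets lung or liver beside skin or beside lymph node runs across this split, and its part in them was not tested. Comparisons of skin with lymph node, and of lung with liver, do not cross it.

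The question put to skin, the site of the autoimmune response, was how its Gimap levels compared with those of the draining lymph node. Every Gimap gene was lower in skin. The 8 genes summed to 332 CPM in skin (313 to 353), from 1094 counts, and 1197 CPM in lymph node (1166 to 1229), from 5426 counts. This is a 3.60-fold lower level in skin (3.38 to 3.85), without crossing the split between libraries. All 8 genes were at least 2-fold lower in skin, whereas 10.3% of the 8961 genes with at least 20 counts in the pair of tissues were. None was at least 2-fold higher, beside 5.59% of those genes. Their median log2 ratio of skin to lymph node was -1.80, beside -0.20 for all those genes.

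Gimap7, whose human product pairs with that of GIMAP2 to hydrolyse GTP, was nearly undetected in skin. It had 2.13 CPM in skin (0.855 to 4.38), 69.0 in lung (63.4 to 75.0), 65.3 in liver (54.4 to 77.8), against 27.6 in lymph node (23.0 to 32.9). Skin held 7 counts in 5 cells, against 125 counts in lymph node, a 13.0-fold lower level in skin (6.11 to 32.9). The skin level comes from a share of cells below that of Krt10, a keratinocyte gene used as background. No signal above background was shown there, and the lymph node share of Gimap7 also came near background, so the size of this fold is uncertain.

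Gimap4, which in rodents is switched on during T cell maturation and promotes programmed cell death, had the next widest gap. It stood at 54.1 CPM in skin, 327 in lung, 306 in liver, against 255 in lymph node, and was 4.73-fold lower in skin than in lymph node (4.03 to 5.56). Among all genes its skin to lymph node ratio lay at the 1.08 percentile, and that of Gimap7 at the 0.134 percentile. The Gimap4 interval overlapped those of Gimap6, Gimap3 and Gimap8 but lay above those of Gimap1, Gimap5 and Gimap9.

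Gimap6 encodes a cytosolic member that binds the autophagy protein GABARAPL2. Its levels were 50.7 CPM in skin, 220 in lung, 208 in liver, against 196 in lymph node, or 3.86-fold lower in skin than in lymph node (3.27 to 4.58). Gimap1, needed for the survival of mature lymphocytes, stood at 91.1 CPM in skin, 364 in lung, 324 in liver, against 289 in lymph node, 3.17-fold lower in skin (2.79 to 3.60). The gap between skin and the other tissues thus held for members known to act in survival and for the autophagy-linked member.

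Gimap5, the lysosomal member required for long-lived T cells in rodents, stood at 35.5 CPM in skin, 134 in lung, 135 in liver, against 88.5 in lymph node. Its skin level was 2.49-fold lower than that in lymph node (2.02 to 3.09), the smallest of the 8 folds, although its interval overlapped those of Gimap1, Gimap8 and Gimap9. Gimap3, a close relative whose mouse product modifies T cell survival, stood at 55.0 CPM in skin, 202 in lung, 203 in liver, against 208 in lymph node, a 3.78-fold lower level in skin (3.22 to 4.45). Summed because of their shared sequence, Gimap3 and Gimap5 stood at 90.5 CPM in skin, against 296 in lymph node, 3.27-fold lower in skin (2.88 to 3.72).

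Gimap8, the longest member with more than 1 GTP-binding domain, had 15.8 CPM in skin, 41.7 in lung, 38.9 in liver, against 50.5 in lymph node. It was 3.20-fold lower in skin than in lymph node (2.36 to 4.41), and lung, liver and lymph node levels lay close together. Gimap9 had 27.9 CPM in skin, 116 in lung, 160 in liver, against 83.0 in lymph node, 2.97-fold lower in skin (2.36 to 3.77). For each of the 8 genes the interval of the skin level lay below those of lung, liver and lymph node.

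**Figure D1:**
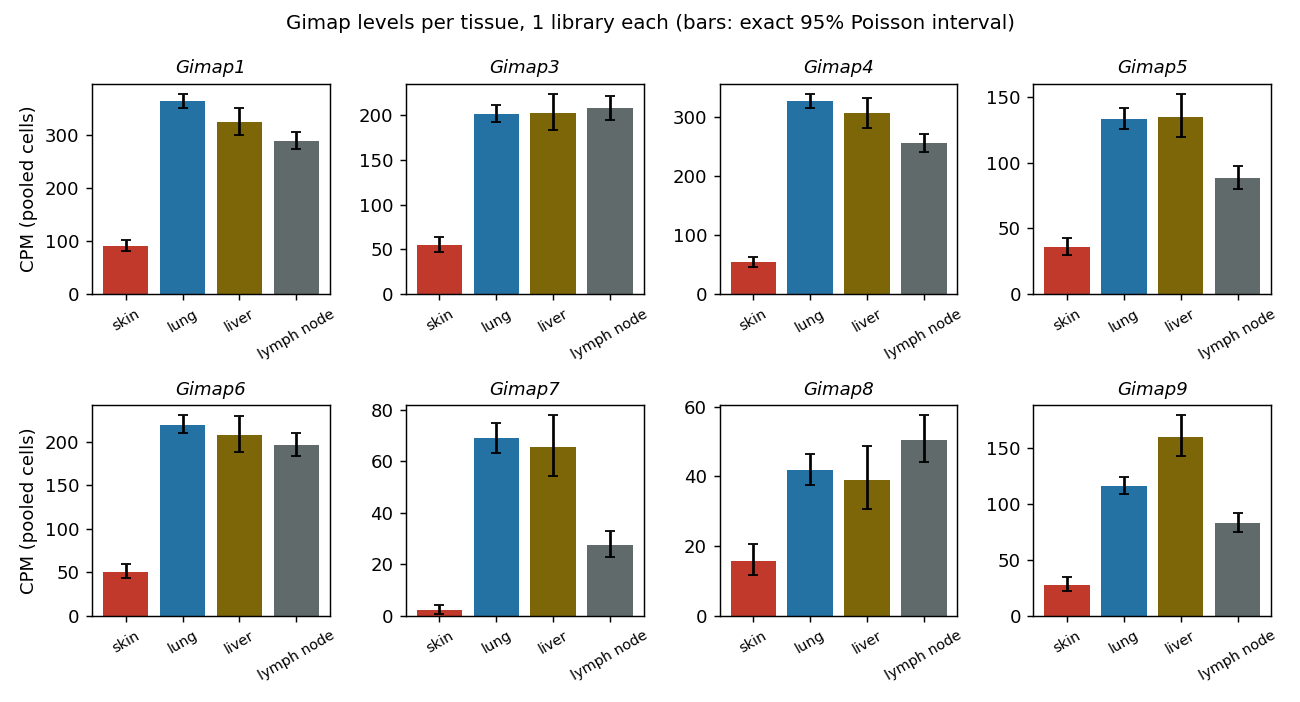
Pooled CPM (y axis, linear scale with its own range for each gene) of each Gimap gene in skin, lung, liver and lymph node, with exact 95% Poisson intervals for counting error as error bars. Every skin level is the lowest of its gene, from 2.13 CPM for Gimap7 to 91.1 CPM for Gimap1, and levels of different genes are not corrected for length.

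Of 19 immediate early genes, which T cell stimulation induces within minutes, 16 were at least 2-fold higher in skin than in lymph node, beside 5.59% of all genes, and 1 was at least 2-fold lower, beside 10.3%. The exception was Jun, at 43.7 CPM in skin, against 115 in lymph node. Of 1224 skin cells, 1129 had a count of Nr4a1, Fosb or Atf3, against 98 of 1625 lymph node cells. Skin was digested with enzymes and lymph node was dissociated mechanically. In an alternative chosen after the values were seen, leaving these cells out kept 95 skin cells. The summed Gimap level was then 3.12-fold lower in skin than in lymph node. With so few skin cells the interval of Gimap8 (ratio 0.459, 0.148 to 1.09) held equality, and Gimap7 had 0 counts. Cells without a detected count of these genes are not known to be free of the early response. The parts of stimulation and of dissociation in the Gimap difference were not tested.

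Lung and liver, organs away from the autoimmune site, were compared with the same lymph node library, so these comparisons share it. The family was slightly higher in both: it summed to 1473 CPM in lung (1446 to 1499), 1440 in liver (1387 to 1495), against 1197 in lymph node. The ratio was 1.23 for lung over lymph node (1.19 to 1.27) and 1.20 for liver over lymph node (1.15 to 1.26). By members, 6 of 8 had a lung to lymph node interval above equality, beside 12.7% of 9047 genes, and 5 of 8 had a liver to lymph node interval above equality, beside 10.9% of 8895 genes. At 2-fold or more, 1 member was higher in lung (3.58% of genes) and 1 in liver (3.92%), Gimap7 in both. None was at least 2-fold lower, beside 18.3% of genes for lung and 22% for liver. An interval below equality was found for 1 member in lung (51.5% of genes) and 0 in liver (41.4%). The median log2 ratio of the members was 0.34 for lung and 0.21 for liver, beside -0.41 for lung and -0.45 for liver over all genes.

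The members split in how they followed lung and liver. Gimap7, Gimap5, Gimap9, Gimap4 and Gimap1 were higher in both organs than in lymph node. Gimap7 was highest relative to lymph node, at 2.50 times its level in lung (2.06 to 3.06) and 2.37 times in liver (1.84 to 3.06). Its share of lymph node cells had an interval that overlapped that of Pecam1, an endothelial gene, so background may make up part of that level. Background may also be part of the lung and liver levels, and its effect on both ratios was not tested. Gimap9 had a ratio of 1.40 in lung (1.24 to 1.58) and 1.93 in liver (1.66 to 2.25), and Gimap5 one of 1.51 in lung (1.35 to 1.70) and 1.53 in liver (1.30 to 1.79). Gimap4 had 1.28 in lung (1.19 to 1.37) and 1.20 in liver (1.08 to 1.32), and Gimap1 had 1.26 in lung (1.18 to 1.35) and 1.12 in liver (1.02 to 1.23). The liver interval of Gimap1 held equality at equal depth and without interferon-responding cells.

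Gimap6, Gimap3 and Gimap8 stayed near lymph node. Gimap6 had a ratio of 1.12 in lung (1.03 to 1.22) and 1.06 in liver (0.941 to 1.20), and without interferon-responding cells its lung interval held equality as well. Gimap3 had 0.971 in lung (0.896 to 1.05) and 0.977 in liver (0.866 to 1.10), but 1.17 in lung and 1.19 in liver under size factors. Gimap8 was the one member whose lung interval lay below equality, at 0.826 (0.697 to 0.982), but the ratio was 0.997 under size factors and 1.01 per count of T cell identity genes. Its liver ratio was 0.770 (0.585 to 1.003). Size factors from median ratios raised each log2 ratio by 0.27 for lung and 0.29 for liver, so a ratio near equality has no fixed direction. The summed Gimap3 and Gimap5 level was 335 CPM in lung, 338 in liver, against 296 in lymph node, or 1.13 for lung (1.06 to 1.21) and 1.14 for liver (1.04 to 1.25).

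**Figure D2:**
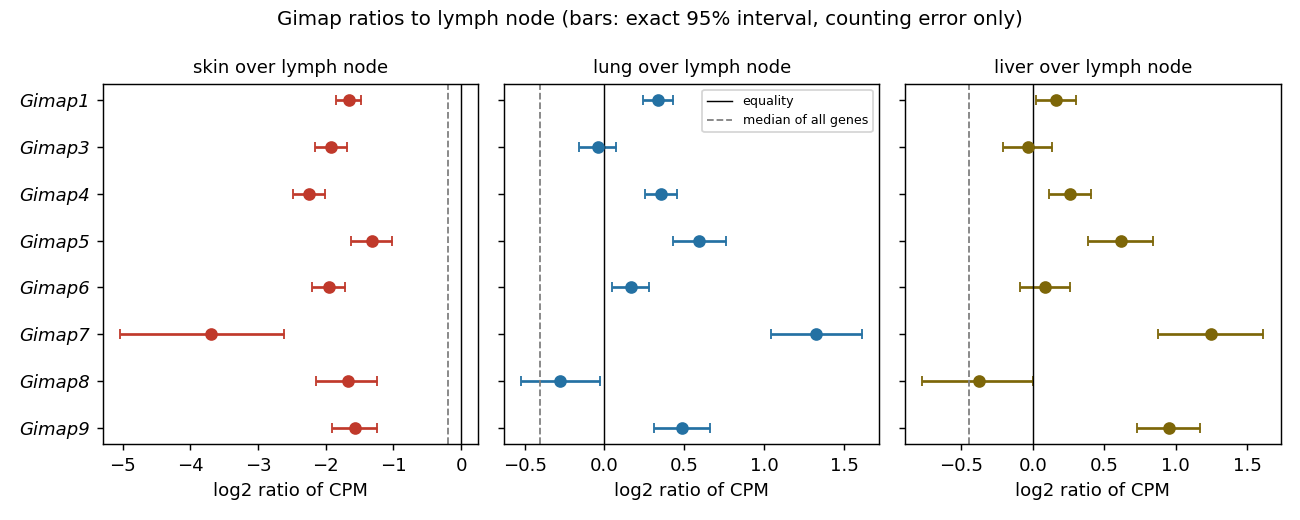
Log2 ratio of pooled CPM to lymph node for each Gimap gene in skin, lung and liver, with exact 95% intervals, a solid line at equality and a dashed line at the median of all genes. Skin ratios lie between -3.70 and -1.32, while in lung and liver Gimap7 is farthest to the right, at 1.32 and 1.24, and Gimap8 farthest to the left, at -0.28 and -0.38.

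Lung and liver, which lie on the same side of the split between libraries, hardly differed. The summed level had a ratio of 1.02 for lung over liver (0.981 to 1.07). None of the 8 genes was at least 2-fold higher (3.41% of 8867 genes) or lower (2.56%). Gimap9 was lower in lung, at 116 CPM against 160 in liver, a ratio of 0.726 (0.638 to 0.828), but at equal depth the ratio was 0.853 and its interval (0.704 to 1.04) held equality. Gimap1 was higher in lung, at 364 CPM against 324 in liver, a ratio of 1.13 (1.03 to 1.23). The other 6 had intervals that held equality, the widest being that of Gimap8 (0.833 to 1.40), so a modest difference in those genes could not be detected at this depth. For 1 gene the interval was above equality and for 1 below, beside 9.78% and 8.14% of all genes.

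Skin set against lung and liver gave wider folds of the summed level than against lymph node, across the split between libraries and with the skin library shared. Gimap3 and Gimap8 did not follow this, with 3.67-fold for Gimap3 against lung, 3.69-fold against liver and 3.78-fold against lymph node. The family was 4.43-fold lower in skin than in lung (4.17 to 4.72) and 4.33-fold lower than in liver (4.04 to 4.65). All 8 genes were at least 2-fold lower in skin in both comparisons, beside 6.37% of 9032 genes against lung and 5.07% of 8516 against liver. None was at least 2-fold higher, beside 15.7% of those genes against lung and 16.4% against liver. Gimap7 was 32.5-fold lower in skin than in lung (15.6 to 81.1) and 30.7-fold lower than in liver (14.5 to 78.0), folds that may be lower bounds. Gimap4 was 6.04-fold lower in skin than in lung and Gimap9 5.73-fold lower than in liver, while Gimap8 showed the smallest folds, 2.64 against lung (1.97 to 3.61) and 2.46 against liver (1.71 to 3.58). Of 2322 lung cells 307, and of 556 liver cells 198, held a count of Nr4a1, Fosb or Atf3. Without such cells, Gimap8 was less than 2-fold lower in skin, at a ratio of 0.542 to lung and 0.606 to liver.

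The mix of Gimap transcripts was described by the share of each gene in the counts of all 8. Gimap7 made up 0.640% of the family's counts in skin (0.258 to 1.31), 4.69% in lung (4.31 to 5.08), 4.54% in liver (3.79 to 5.38), against 2.30% in lymph node (1.92 to 2.74). Its share was thus lowest in skin and higher in lung and liver than in lymph node. Gimap4 made up 16.3% in skin (14.1 to 18.6), 22.2% in lung, 21.2% in liver, against 21.3% in lymph node (20.3 to 22.5), which sets skin apart from the other tissues. Gimap5 made up 10.7% in skin (8.93 to 12.7), 9.08% in lung, 9.40% in liver, against 7.39% in lymph node (6.71 to 8.12), so skin held more of it than lymph node relative to the rest of the family. Gimap9 had its largest share in liver, 11.1% (9.98 to 12.4), against 7.90% in lung (7.42 to 8.40). Gimap8 made up 4.75% in skin, 2.83% in lung, 2.70% in liver, against 4.22% in lymph node, so lung and liver held less of it than lymph node relative to the rest of the family. Gimap3 made up 16.5% in skin, 13.7% in lung (13.1 to 14.3), 14.1% in liver, against 17.3% in lymph node (16.3 to 18.4), and Gimap1 27.4% in skin (24.8 to 30.2), 24.7% in lung, 22.5% in liver (20.9 to 24.1), against 24.1% in lymph node. Gimap6 made up 15.3% in skin (13.2 to 17.5), 14.9% in lung (14.3 to 15.6), 14.4% in liver (13.2 to 15.8), against 16.4% in lymph node (15.4 to 17.4), with intervals that overlapped between all tissues. Shares within a tissue do not depend on the tissue totals used as denominator.

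**Figure D3:**
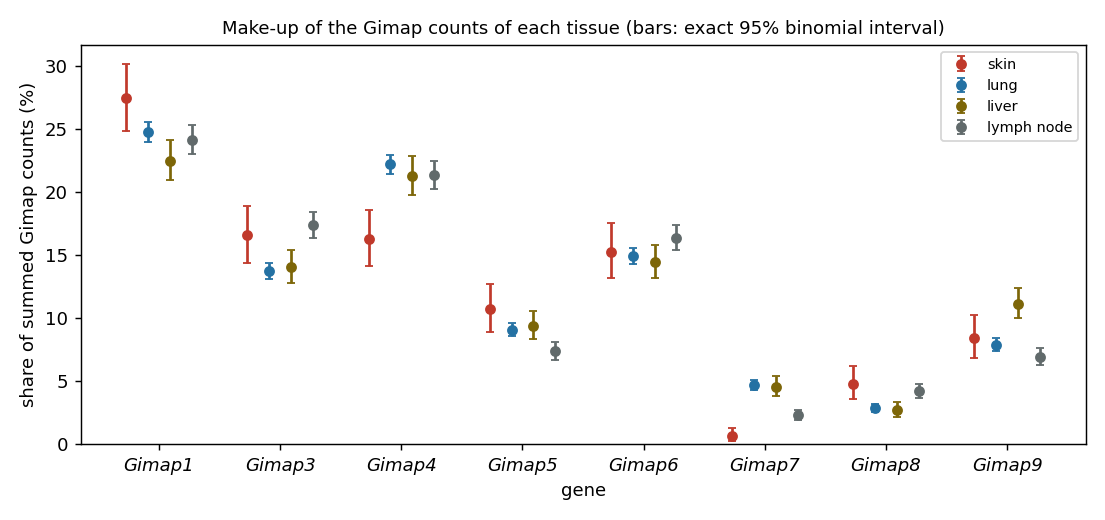
Share of each Gimap gene in the summed Gimap counts (percent) in skin, lung, liver and lymph node. The Gimap7 share is 0.640% in skin, 4.69% in lung, 4.54% in liver, against 2.30% in lymph node, while Gimap1 holds 22.5% to 27.4% in every tissue.

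To compare shares of cells at equal depth, cells were thinned to 1886 counts each, which left 1083 skin, 2049 lung, 529 liver and 1494 lymph node cells. A count of any Gimap gene was found in 41.3% of skin cells (38.3 to 44.3), 93.4% of lung cells (92.2 to 94.4), 92.1% of liver cells (89.4 to 94.2), against 85.3% of lymph node cells (83.4 to 87.1). Without thinning it was found in 50.3% of skin, 97.2% of lung, 97.3% of liver and 91.3% of lymph node cells. At equal depth 3 or more Gimap genes were detected in 2.68% of skin cells, 40.1% of lung cells, 34.97% of liver cells, against 26.9% of lymph node cells. No cell held all 8 genes in any tissue. The median number of Gimap genes per cell was 0 in skin and 2 in each of the other tissues.

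By gene, Gimap1 had a count in 15.1% of skin cells, 49.7% of lung cells, 44.2% of liver cells, against 40.4% of lymph node cells at equal depth. Without thinning it had one in 19.7% of skin, 65.9% of lung, 63.3% of liver and 52.8% of lymph node cells. Gimap7 had a count in 0.369% of skin cells (0.101 to 0.943), 12.8% of lung cells (11.4 to 14.3), 10.8% of liver cells (8.26 to 13.7), against 4.35% of lymph node cells (3.37 to 5.51). Unthinned, its shares were 0.408% for skin, 20.1% for lung, 18.7% for liver, against 6.40% for lymph node. Gimap7 was therefore detected in a minority of the cells of each tissue, and its share in lung and liver exceeded that in lymph node.

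Gimap4 had a count in 9.23% of skin cells, 46.2% of lung cells, 42.2% of liver cells, against 36.1% of lymph node cells at equal depth. Gimap3 had one in 9.70% of skin, 32.5% of lung, 30.8% of liver and 31.5% of lymph node cells. Gimap6 had one in 8.68% of skin, 34.7% of lung, 30.8% of liver and 28.8% of lymph node cells. For Gimap3 the lung, liver and lymph node intervals overlapped, as did those of its levels. Unthinned shares were 11.9% for skin, 62.8% for lung, 59.7% for liver, against 44.9% for lymph node for Gimap4, and 12.7% for skin, 47.9% for lung, 46.4% for liver, against 41.1% for lymph node for Gimap3. For Gimap6 they were 12.3% for skin, 49.5% for lung, 49.1% for liver, against 37.3% for lymph node.

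Gimap9 was in 4.80% of skin cells, 19.6% of lung cells, 22.1% of liver cells (18.7 to 25.9), against 14.7% of lymph node cells at equal depth. Gimap5 was in 5.63% of skin, 22.3% of lung, 21.6% of liver and 14.8% of lymph node cells. Gimap8 was in 3.32% of skin cells (2.34 to 4.57), 7.66% of lung cells (6.55 to 8.90), 7.56% of liver cells, against 8.90% of lymph node cells (7.51 to 10.5). Gimap9 and Gimap5 thus reached more cells of lung and liver than of lymph node, while the Gimap8 intervals of those tissues overlapped. Unthinned shares were 6.70% for skin, 31.6% for lung, 38.8% for liver, against 19.5% for lymph node for Gimap9, and 8.66% for skin, 34.8% for lung, 33.8% for liver, against 20.7% for lymph node for Gimap5. For Gimap8 they were 4.08% for skin, 13.2% for lung, 11.9% for liver, against 12.7% for lymph node.

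No cell type that should lack Gimap genes was available, so 13 genes of B cells, myeloid cells, endothelium, airway epithelium and keratinocytes served as background. Their highest shares at equal depth were 1.57% in skin (Krt10, 0.917 to 2.50), 5.47% in lung (Lyz2, 4.52 to 6.54), 3.21% in liver (Cd79b, 1.88 to 5.10), against 2.95% in lymph node (Pecam1, 2.15 to 3.93). These genes summed to 37.7 CPM in skin, 105 in lung, 61.2 in liver, against 86.7 in lymph node, and of the 13, 4 were at 0 in skin, 1 in lung, 5 in liver, against 2 in lymph node. Cst3, found in 33.3% to 37.8% of cells in every tissue, was left out of this background after its values were seen. Krt10 was also found in 1.67% of lymph node cells and Pecam1 in 1.29% of skin cells, so neither was particular to 1 tissue. Whether these background counts came from other cell types was not tested. Gimap7 in skin lay below the background share, Gimap8 in skin had an interval that overlapped it, and the other 6 genes lay above it in every tissue. The part of other cells' RNA in the Gimap levels was not tested.

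**Figure D4:**
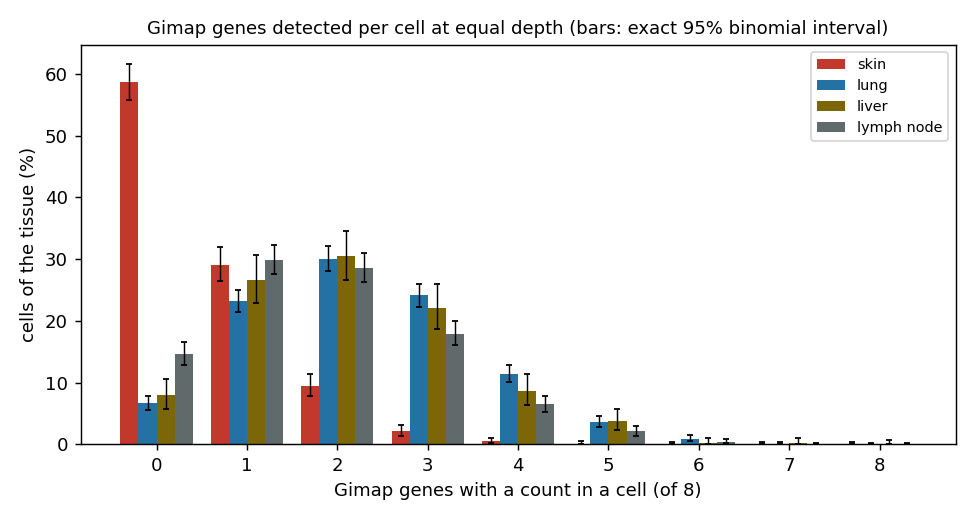
Percent of cells, at 1886 counts per cell, by the number of Gimap genes detected, in skin, lung, liver and lymph node. Skin cells pile up at 0 genes (58.7%), whereas 6.64% of lung, 7.94% of liver and 14.7% of lymph node cells have none.

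Whether Gimap levels varied with the state of a cell within a tissue was described by splitting the thinned cells by a count of a state gene. Cells of 1 library are not replicates, so these splits describe the libraries only. Over 33 splits the ratio of the summed Gimap level in cells with a count to that in cells without ran from 0.745 to 1.14, and 25 of the 33 intervals held equality. A further 11 splits had under 50 cells on a side and were not compared. The widest gap with an interval outside equality was for Itgae, which encodes CD103, a receptor of tissue-resident cells. In lymph node, cells with an Itgae count had 1058 Gimap CPM and cells without had 1351, a ratio of 0.783 (0.731 to 0.839), and in skin the levels were 313 and 371, a ratio of 0.843 (0.722 to 0.985). In lung they were 1580 and 1512 (ratio 1.04, 0.989 to 1.10) and in liver 1409 and 1435 (ratio 0.982, 0.872 to 1.10).

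Within lymph node, the members did not share the Itgae gap equally. Gimap6 had 155 CPM in cells with an Itgae count and 241 in cells without, a ratio of 0.644 (0.541 to 0.766), while Gimap1 had 275 and 291, a ratio of 0.946 (0.822 to 1.09). Gimap7 had the lowest ratio, 0.515 (0.298 to 0.868), from 23 counts in cells with an Itgae count, and Gimap8 had 0.632 (0.442 to 0.898). Gimap5 had 0.742 (0.571 to 0.963), Gimap4 0.768 (0.662 to 0.890), Gimap3 0.792 (0.671 to 0.934) and Gimap9 0.896 (0.690 to 1.16). The intervals of Gimap6 and Gimap1 did not overlap, but this pair was not chosen in advance.

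Klf2 encodes a factor of quiescent, circulating T cells. In lymph node, cells with a Klf2 count had 1322 Gimap CPM and cells without had 1175, a ratio of 1.13 (1.04 to 1.22), and in skin 352 and 331 (ratio 1.06, 0.857 to 1.30). In lung the levels were 1540 and 1515 (ratio 1.02), and in liver 1397 and 1597 (ratio 0.875, 0.764 to 1.005). Gimap7 in lung had 67.1 CPM in cells with a Klf2 count and 101 in cells without, a ratio of 0.665 (0.512 to 0.872), whereas the other 7 genes had intervals that held equality in that split. It is 1 of many splits of single genes, was not chosen in advance, and others were wider. Gimap5 by Klf2 in liver had a ratio of 0.572 (0.384 to 0.871), and Gimap9 by Tcf7 in lymph node had 1.89 (1.31 to 2.67). Gzma, the gene of granzyme A, gave 1534 Gimap CPM with and 1757 without a count in lung (ratio 0.873, 0.800 to 0.955). Lung cells with counts of 3 or more cell cycle genes had 1249 Gimap CPM, against 1543 in the others (ratio 0.810, 0.692 to 0.942). Cd69, like Itgae a marker of resident cells, went the other way in lymph node, at 1340 Gimap CPM in cells with a count and 1186 in cells without (ratio 1.13, 1.03 to 1.24). In the same tissue cells with a count of Tcf7, a factor of stem-like memory cells, had 1347 and those without 1192 (ratio 1.13, 1.01 to 1.26). Lung cells with an Il7r count had 1612 and those without 1511 (ratio 1.07, 1.003 to 1.13). With Itgae in skin and lymph node, Klf2 in lymph node, Gzma in lung and cycling in lung, these are the 8 splits whose intervals left out equality, 4 below it and 4 above. Skin cells with a count of Nr4a1, an early target of receptor signaling, had 336 Gimap CPM and those without had 326, a ratio of 1.03 (0.836 to 1.28).

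Tissues were also compared within classes of cells set by detection of a count of some of these genes. Over 8 classes of cells, with or without a count of Klf2, Itgae, Cd69 or Gzma, the summed Gimap level was 3.09 to 4.03-fold lower in skin than in lymph node. It was 4.08 to 5.46-fold lower in skin than in lung and 3.87 to 4.82-fold lower than in liver. The ratio of lung to lymph node ran from 1.12 to 1.49 and that of liver to lymph node from 1.06 to 1.36. For liver the interval held equality in cells with a Klf2 count (1.06, 0.965 to 1.16) and in cells without an Itgae count (1.06, 0.983 to 1.15). The classes overlap, since each cell falls on one side for each gene. A cell without a count may still express the gene, so the classes do not match cells for state. Within a tissue, the ratio between sides ran only from 0.745 to 1.14 over all 33 splits. The skin folds within classes therefore had little room to depart from the pooled ones. The part of cell state in the tissue differences was not tested.

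**Figure D5:**
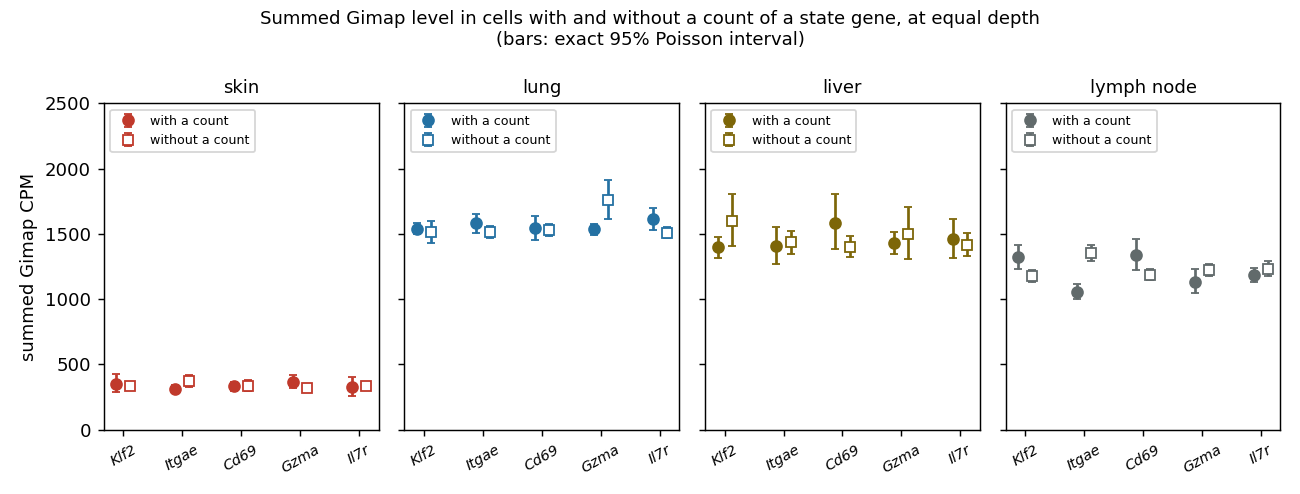
Summed Gimap CPM (y axis) in cells with (filled circles) and without (open squares) a count of Klf2, Itgae, Cd69, Gzma or Il7r, in each tissue at 1886 counts per cell, with exact 95% Poisson intervals. All skin values lie between 313 and 371 CPM, and in lymph node the cells with an Itgae count (1058 CPM) lie below those without (1351 CPM).

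Genes linked to the Gimap family by known function were set beside it, from lists chosen with earlier results of these data known. The recirculation and quiescence list holds genes of circulating and resting T cells. Of its 25 genes 13 were at least 2-fold lower in skin than in lymph node, beside 10.3% of all genes, and 3 at least 2-fold higher, beside 5.59%. The median log2 ratio was -1.04, beside -1.80 for Gimap genes. Il7r, the receptor chain for the survival cytokine interleukin-7, had 72.9 CPM in skin, against 443 in lymph node, and Slfn1, a gene of quiescent T cells, had 10.3 in skin, against 106 in lymph node. Tob1 and Btg2, a pair of antiproliferative genes, went the other way, at 173 CPM for Tob1 in skin, against 28.5 in lymph node, and at 2009 for Btg2 in skin, against 416 in lymph node. Btg2 is also on the immediate early list. For lung over lymph node the median was 0.34 for Gimap genes, -0.35 for this list and -0.41 for all genes. For liver it was 0.21 for Gimap genes, -0.26 for the list and -0.45 for all genes. The list was divided. In lung 7 of its 25 genes were at least 2-fold higher (3.58% of all genes) and 10 at least 2-fold lower (18.3%). In liver 7 were at least 2-fold higher (3.92%) and 9 at least 2-fold lower (22%).

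The interferon-inducible GTPases, an unrelated GTPase family of immunity with GBP and IRG proteins, were mostly lower than in lymph node in the other tissues. Of 14 genes, 13 were at least 2-fold lower in skin (10.3% of all genes), 8 in lung (18.3%) and 8 in liver (22%), with a median log2 ratio of -1.61 for skin, -1.07 for lung and -1.14 for liver. Ifi47 had 48.9 CPM in skin, against 258 in lymph node, and Gbp9 had 8.42 in lung and 56.7 in lymph node. Both GTPase families were thus lower in skin than in lymph node, while 5 Gimap genes were higher in lung and liver. Interferon-responding cells, with counts of at least 3 interferon genes, numbered 25 in skin, 153 in lung, 55 in liver, against 262 in lymph node. Leaving them out did not move the summed Gimap ratio of any comparison beyond its interval.

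Lists tied to partners of GIMAP proteins had median log2 ratios of skin to lymph node from -0.03 to 0.27, beside -0.20 for all genes. Of 14 genes of the Bcl2 family, which govern apoptosis, 6 were at least 2-fold higher in skin than in lymph node, beside 5.59% of all genes, and 1 at least 2-fold lower, beside 10.3% (median log2 ratio 0.27). Bcl2a1d, one of several near-identical copies whose separate values are uncertain, had 746 CPM in skin, against 111 in lymph node. Of 15 autophagy genes 3 were at least 2-fold higher, beside 5.59% of all genes, and 0 lower, beside 10.3% (median -0.03). Gabarapl2, whose product binds GIMAP6, had 348 CPM in skin, against 495 in lymph node, a ratio of 0.703 (0.654 to 0.756), and Gimap6 was lower by more. Of 12 kinases and quiescence regulators linked to GIMAP5, none passed 2-fold in either direction (median 0.22), and Gsk3b, the kinase that GIMAP5 restrains in T cells, had 102 CPM in skin, against 100 in lymph node. T cell identity genes had a median of -0.07 for skin. Tissue residency genes had a median of 1.37 for skin. Of 23, 13 were at least 2-fold higher, beside 5.59% of all genes, and 0 lower, beside 10.3%. Among members with at least 50 CPM in the higher tissue, the highest ratios were those of Nr4a1 (117) and Fosl2 (16.4). The lowest among them were those of Isg20 (0.678) and Cxcr6 (0.683). Nr4a1 is also on the immediate early list.

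Of 11 other genes of the table that lie within 500 kb of the Gimap cluster, 10 could be compared, and 3 of them were at least 2-fold lower in skin than in lymph node, beside 10.3% of all genes. Their median log2 ratio was -0.59, beside -0.20 for all genes. None was at least 2-fold higher, beside 5.59% of all genes. Of the 10, 8 were lower in skin and 2 higher. The 2 were Tmem176b, at a ratio of 1.78 (1.27 to 2.50), and Tmem176a, at 1.40 (0.996 to 1.96). The 3 at least 2-fold lower were Igf2bp3, 4833403J16Rik and Zfp467. These 3, Tmem176b and Tmem176a were named after their values were seen. Igf2bp3 had 4.56 CPM in skin, 12.5 in lung, 7.26 in liver, against 24.3 in lymph node, a 5.33-fold lower level in skin than in lymph node (3.09 to 9.84). 4833403J16Rik lies within the cluster, between Gimap5 and Gimap3, and had 1.52 CPM in skin, 7.93 in lung, 6.74 in liver, against 5.74 in lymph node, 3.78-fold lower in skin than in lymph node (1.43 to 12.6) from 5 counts in skin. Zfp467 had 4.25 CPM in skin, 0.991 in lung, 1.56 in liver, against 8.83 in lymph node, 2.08-fold lower in skin than in lymph node (1.11 to 4.13). Tra2a, a splicing factor gene, had 103 CPM in skin, 76.3 in lung, 87.1 in liver, against 118 in lymph node, a skin to lymph node ratio of 0.878 (0.764 to 1.008).

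Among themselves, Gimap3 and Gimap6 had the most similar pattern over the 4 tissues, with a largest difference of 0.13 in log2 CPM centred over the tissues, and Gimap1 and Gimap6 followed at 0.15. Gimap7 was the farthest from every other member, at 1.58 from Gimap4 and 2.32 from Gimap8. Outside the family, the 8 genes of 2737 candidates with the pattern most like the summed Gimap level over the 4 tissues were Rab19, Pyhin1, Samhd1, Fam65b, Phf11b, Icam2, Pdlim2 and Dgka. Their largest differences ran from 0.21 for Rab19 to 0.42 for Dgka, which is also on the recirculation list. Samhd1, which encodes an enzyme that breaks down nucleotides, had 89.0 CPM in skin, 282 in lung, 316 in liver, against 291 in lymph node, and Icam2, an adhesion gene, had 13.4 CPM in skin, 69.6 in lung, 72.6 in liver, against 40.8 in lymph node. With 4 points, likeness of this kind is a description of these libraries.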

How the data were processed

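The deposited table gives, for each gene and cell, a whole-number count made by the authors. Per the submitters' processing notes, Bowtie, RSEM and mm10 were used, with no versions stated. The sources used here do not say whether counts are of unique molecules. Column names carry the tissue, 0 columns were left out, and the 16 samples gave 1 library per tissue. Summing over the cells of a tissue and dividing by that tissue's total gave counts per 1000000 (CPM). Ratios carry exact conditional binomial 95% intervals, levels Poisson and shares Clopper-Pearson intervals. The ratio intervals alone were tested, on simulated Poisson counts, the model they assume, so spread between cells or mice was not covered. A call means at least 2-fold, among genes with 20 or more counts over both tissues. Cells were thinned to 1886 counts, the 10th percentile. Doublets called by Scrublet (expected rate 0.05; 27 skin, 10 lung, 17 liver and 8 lymph node cells) were kept in the main values. All Gimap genes are described. From each list only members with at least 50 CPM in the higher tissue and the lowest or highest ratios were named. The 8 genes most like the family sum were also named. Neighbours of the cluster other than Tra2a were named after their values were seen. Members and lists were chosen with earlier results of these data known. Positions and coding sequences came from GENCODE M21, and coding identity from pairwise global alignment of DNA stands in for the planned alignment of proteins, which could not be run. The work used Python 3.11.15, numpy 2.4.6, scipy 1.17.1, pandas 2.3.3, scanpy 1.11.5 and biopython 1.88.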

Additional observations from a re-analysis of the deposited data

How the results depend on the processing

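The summed Gimap ratios kept their direction under all 9 alternatives each. The skin to lymph node ratio was 0.308 under size factors from median ratios, 0.258 with ribosomal, mitochondrial and pseudogene counts left out of the totals, and 0.321 without cells with a count of Nr4a1, Fosb or Atf3, an alternative chosen after seeing the data. For skin to lung these settings gave 0.207, 0.209 and 0.260, and per count of T cell identity genes 0.195. For skin to liver they gave 0.210, 0.213 and 0.263, and per T cell identity count 0.206. Lung to lymph node moved to 1.48 under size factors and 1.505 per T cell identity count, and liver to lymph node to 1.47 and 1.43. Lung to liver was 1.07 in cells thinned to equal depth. For liver to lymph node, members at 2-fold or more numbered 2 under size factors, without cycling cells and per T cell identity count, and 1 otherwise. Gimap8 turned from lower to higher in lung than in lymph node, at 1.01, per T cell identity count. The causes of these shifts were not tested. Of 432 ratios of single genes 45 moved, 1 reversed and 386 did neither. No paired analysis was possible because each tissue is 1 library, the columns carry no replicate number, and no test was made. With 1 library per tissue, differences between mice, dissections and libraries cannot be told apart from those between tissues.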
